A study of Mus musculus with 3 samples.

Results

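Nuclear genes of oxidative phosphorylation were followed in mouse lung, in 1 library of dissociated cells and in 2 libraries of isolated nuclei. The members were all genes of both deposited tables whose symbols belong to the structural gene families of complexes I, III, IV and V of the respiratory chain (Nduf, Uqcr, Cox4i1, Cox5 to Cox8 and Atp5 symbols). The rule reads symbols only. The rule found 85 of the 21507 genes that the tables share. These were 35 subunits of complex I, 8 of complex III, 17 of complex IV and 17 of complex V, together with 8 assembly factors of complex I (Ndufaf genes) that match the same symbols. Ndufa4 and its paralogue Ndufa4l2 were counted with complex IV, of which Ndufa4 is a subunit despite its name. Cox4i1 and Cox8c are not analysed here.

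The cells were released from fresh lung of wild type C57Bl/6J mice with collagenase, DNAse and mechanical dissociation, and were cleaned on a density gradient. The nuclei came from adult wild type lung that had been snap-frozen, lysed in a nuclear isolation buffer and passed through 40 and 5 micron filters. Neither preparation was sorted. Fresh or frozen tissue and cell or nucleus preparation therefore differed together and cannot be told apart. Separate animals are not named in the labels. The p-values measure the spread between these libraries only, of which a part may be technical, and the cell library has no replicate. In fits of cells over nuclei the 2 nucleus libraries alone carry the spread, with 1 residual degree of freedom. Their p-values and SEs therefore hold no spread between cell libraries.

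Oxidative phosphorylation couples electron transport along the inner mitochondrial membrane to ATP synthesis. Complex I takes electrons from NADH, complex III passes them to cytochrome c, complex IV gives them to oxygen, and complex V uses the resulting proton gradient to make ATP. A few core subunits of complexes I, III, IV and V are encoded in mitochondrial DNA, and all other subunits are nuclear genes whose mRNAs are exported and translated in the cytoplasm or at the mitochondrial surface. Some subunits of complex IV have isoforms tied to tissues, among them a lung isoform of subunit 4 (Cox4i2) and forms found mainly in heart and skeletal muscle or in testis. In lung, ciliated cells and type II pneumocytes are known to be rich in mitochondria, and alveolar macrophages to rely on oxidative metabolism.

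The promoters of these genes are known as targets of the factors NRF1, GABPA and YY1. RefSeq promoter windows, from 250 bases before to 50 bases after a gene's start on build GRCm38.p6, were found for 71 of the 85 members, in 76 windows. Searched on both strands, the NRF1 palindrome, which is GC followed by the core GCATGCGC, was held by 7 of the 76 member windows (9.21%), against 0.971% of the 32851 windows in the table. The core, which lies within the palindrome, was held by 11 (14.5%), against 2.71% of all windows. The ETS element CCGGAAG bound by GABPA was held by 17 (22.4%), against 8.86%, and the YY1 element AAGATGG by 11 (14.5%), against 6.34%. The windows of 5 genes are printed because the results below turn on these genes, with the motifs found in capitals and positions counted from the gene's start. The widely expressed Cox6a1, at chr5:115348909-115349208 on the minus strand, held the palindrome at -162 and the ETS element, read as CTTCCGG, at -16. Uqcrc1, at chr9:108936398-108936697 on the plus strand, held the palindrome at 30 bases past the start. Cox6b1, at chr7:30626065-30626364 on the minus strand, held CTTCCGG at -28. Its paralogue Cox6b2, at chr7:4753045-4753344 on the minus strand, and Cox7a2l, at chr17:83514284-83514583 on the minus strand, held none of the 4.
Cox6a1: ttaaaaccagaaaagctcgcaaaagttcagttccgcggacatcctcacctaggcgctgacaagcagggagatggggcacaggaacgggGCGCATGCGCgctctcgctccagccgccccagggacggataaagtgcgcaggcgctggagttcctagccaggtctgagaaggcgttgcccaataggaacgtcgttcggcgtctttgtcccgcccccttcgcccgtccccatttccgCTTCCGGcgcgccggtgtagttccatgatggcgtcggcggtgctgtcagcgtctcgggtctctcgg
Uqcrc1: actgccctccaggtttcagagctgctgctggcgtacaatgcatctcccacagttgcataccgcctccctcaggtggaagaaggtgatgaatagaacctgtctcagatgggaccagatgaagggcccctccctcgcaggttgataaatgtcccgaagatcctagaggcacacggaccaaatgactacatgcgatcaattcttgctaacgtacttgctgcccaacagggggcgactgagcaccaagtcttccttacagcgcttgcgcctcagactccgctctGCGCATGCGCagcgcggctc
Cox6b1: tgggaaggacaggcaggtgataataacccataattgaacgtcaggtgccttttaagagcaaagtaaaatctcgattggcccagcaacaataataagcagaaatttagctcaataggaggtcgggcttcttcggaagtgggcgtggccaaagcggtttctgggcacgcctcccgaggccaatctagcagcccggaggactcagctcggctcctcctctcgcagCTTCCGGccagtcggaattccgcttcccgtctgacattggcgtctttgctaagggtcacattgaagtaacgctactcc
Cox6b2: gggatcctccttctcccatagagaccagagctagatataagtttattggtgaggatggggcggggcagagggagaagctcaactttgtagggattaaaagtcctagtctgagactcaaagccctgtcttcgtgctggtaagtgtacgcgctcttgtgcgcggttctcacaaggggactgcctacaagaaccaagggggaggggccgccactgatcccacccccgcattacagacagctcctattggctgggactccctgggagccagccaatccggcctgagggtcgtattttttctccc
Cox7a2l: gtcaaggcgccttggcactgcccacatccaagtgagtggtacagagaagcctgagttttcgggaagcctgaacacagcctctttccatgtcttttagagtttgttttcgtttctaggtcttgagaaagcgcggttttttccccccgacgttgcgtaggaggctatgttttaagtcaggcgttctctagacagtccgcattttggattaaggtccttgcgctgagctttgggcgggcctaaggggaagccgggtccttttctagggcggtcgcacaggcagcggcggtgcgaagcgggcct

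The 3 libraries held 35962788 counts in 11934 cells, and 28062109 and 27148272 counts in 6849 and 9806 nuclei of replicates 1 and 2. A median barcode had 2864 UMIs in cells and 4152 and 2521 UMIs in nuclei, with a median of 2.01% mitochondrial counts in cells and 0.301% and 0.240% in nuclei. Between pairs of libraries 21 to 24 barcodes were shared. Xist stood at 285 CPM (a gene's counts scaled to the same library total) in cells and at 1022 and 9.62 CPM in nuclei, and Uty at 1.03 CPM in cells and at 0.938 and 269 CPM in nuclei, so the nucleus libraries cannot both have come from a single animal. The cell library was made up differently from the nuclei: alveolar macrophage-like barcodes were 18.3% of cells and 2.26% and 4.45% of nuclei. In whole-library sums, fewer cells of a type and less RNA per cell cannot be told apart.

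Taken over whole libraries, structural subunits of all 4 complexes were higher in cells than in nuclei. The 85 members together made up 0.822% of all counts in cells, against 0.254% and 0.247% in nuclei. All 85 had at least 1 count in each library and all were among the 19806 genes tested. At an edgeR adjusted p under 0.05, 62 members were higher in cells, where 16.3% of all genes tested were. 1 member was lower, where 8.19% of all genes were, and 22 did not pass. The median log2 fold of cells over nuclei was 1.91 for the members and -0.03 for all genes. In 69 members the cell library lay above both nucleus libraries, where 44.3% of all genes did, and in 10 it lay below both.

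**Figure D1:**
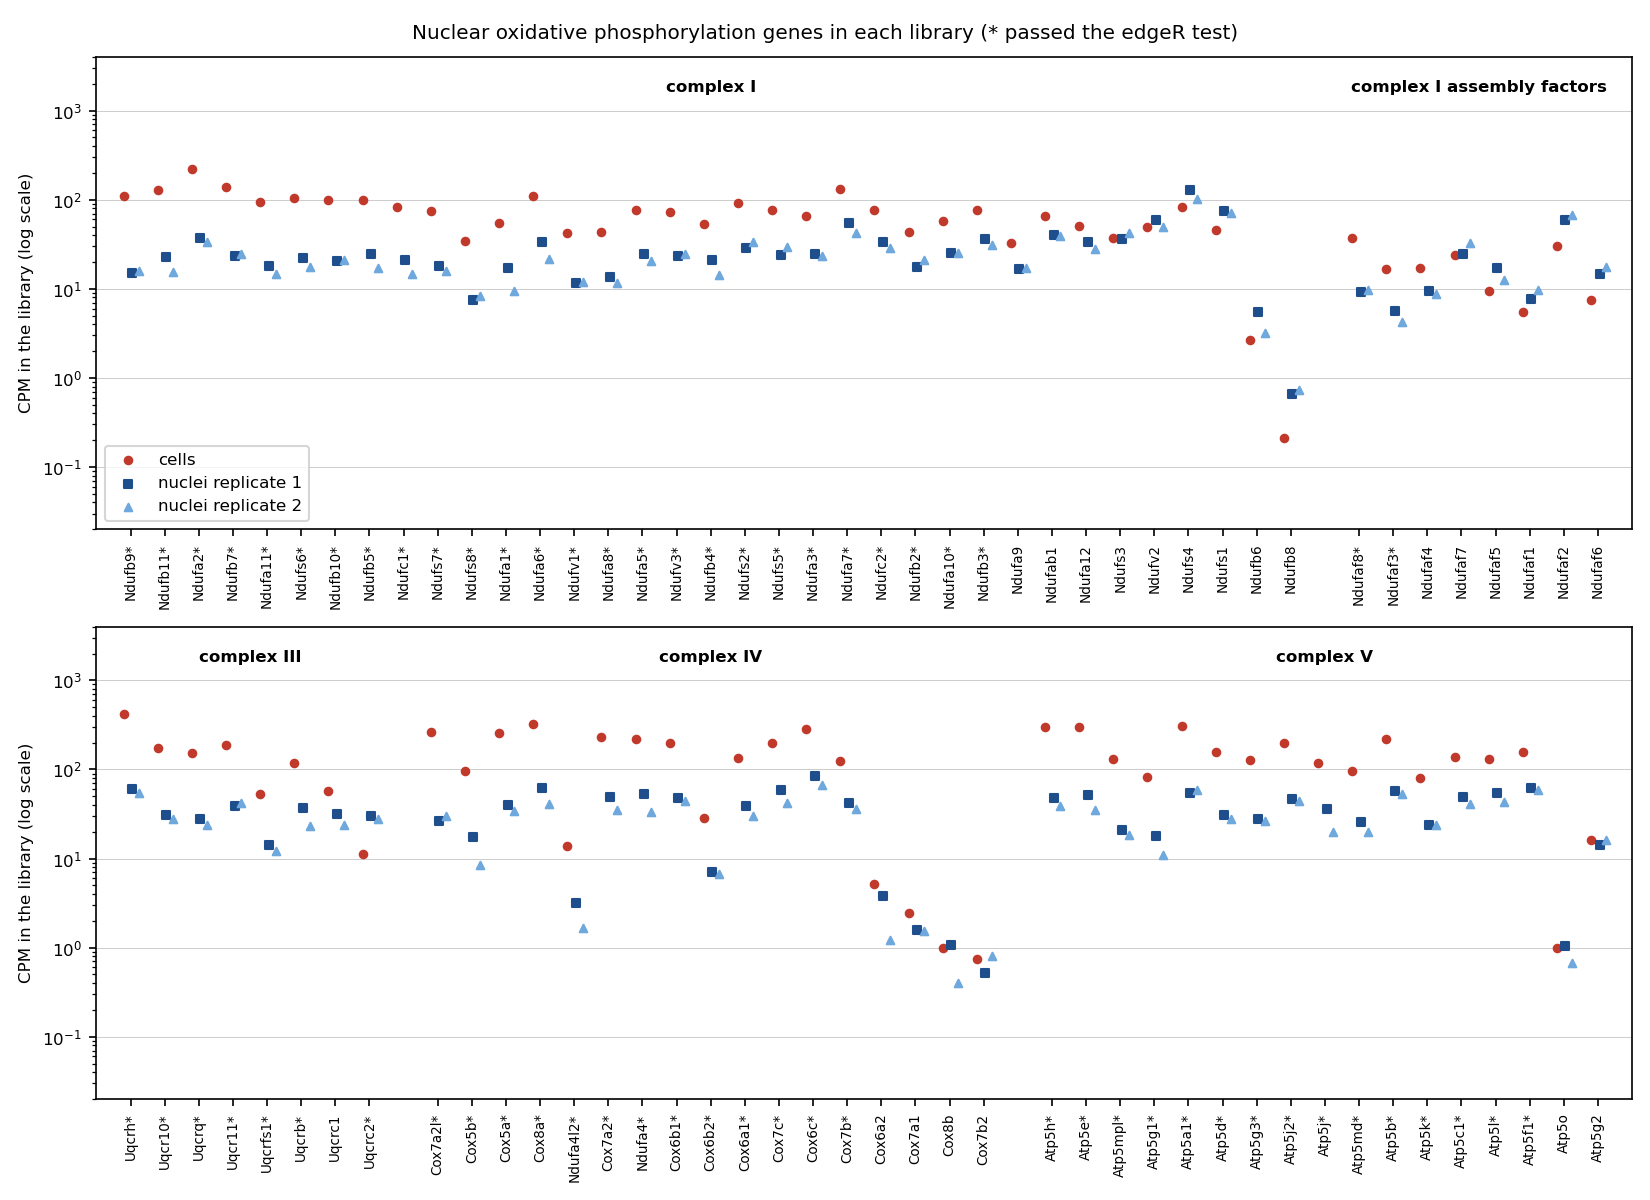
TMM-scaled CPM (log axis) of each of the 85 members in cells (circles), nucleus replicate 1 (squares) and nucleus replicate 2 (triangles), by complex, with an asterisk for members that passed the edgeR test. Most subunits of complexes I, III, IV and V sit higher in cells than in both nucleus libraries, and the 8 assembly factors are spread on both sides.

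Complex IV, the oxidase, held the member with the largest called fold at or above 10 CPM. Cox7a2l, which joins complexes III and IV into supercomplexes and of which C57BL/6 mice carry a short form, stood at 260 CPM in cells and at 26.2 and 29.7 CPM in nuclei (log2 fold 3.22 ± 0.31 SE, edgeR adjusted p = 0.00489). The gene lies on GRCm38.p6 at chr17:83501917-83514333. Cox5b and Cox5a, subunits that sit beside the catalytic core, were at 95.2 and 256 CPM in cells, against 17.4 and 8.44 CPM for Cox5b and 40.1 and 34.2 CPM for Cox5a in nuclei. Their log2 folds were 2.88 ± 0.45 and 2.79 ± 0.32 SE, and in both genes the cell library lay above both nucleus libraries. In all, 13 of the 17 complex IV members were higher in cells (median log2 fold 2.06), and the other 4 were low-level tissue-restricted isoforms described below.

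In complex III, the cytochrome bc1 complex, 6 of 8 members were higher in cells (median log2 fold 2.12). Uqcrh, the hinge protein that helps cytochrome c bind, was at 419 CPM in cells and at 59.7 and 54.5 CPM in nuclei (2.88 ± 0.33 SE, edgeR adjusted p = 0.00497). The small subunits Uqcr10 and Uqcrq had log2 folds of 2.56 and 2.55, with 174 and 151 CPM in cells. The Rieske iron-sulphur protein Uqcrfs1 was at 52.5 CPM in cells and at 14.2 and 12 CPM in nuclei. The core proteins differed from these. Uqcrc2, a core protein without redox group, at chr7:120635189-120659523, stood at 11.2 CPM in cells and at 30.1 and 27.6 CPM in nuclei (-1.37 ± 0.34 SE, edgeR adjusted p = 0.0353), and it was the member that fell. Its partner Uqcrc1 was at 57.9 CPM in cells and at 31.3 and 23.8 CPM in nuclei, with the cells above both nuclei, and did not pass (1.07, edgeR adjusted p = 0.0576). The partners form a heterodimer in the complex, and their levels lay on opposite sides of the nuclei.

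Complex V, the ATP synthase, had 15 of 17 members higher in cells (median log2 fold 2.09). Atp5h, a subunit of the stator stalk, was at 301 CPM in cells and at 47.4 and 39 CPM in nuclei (2.80 ± 0.33 SE, edgeR adjusted p = 0.00512). Atp5e, the epsilon subunit of the rotor, was at 303 CPM in cells and at 52.2 and 35.5 CPM in nuclei (2.79 ± 0.36 SE). The small membrane subunit Atp5mpl had 130 CPM in cells and 20.7 and 18.2 CPM in nuclei (2.74 ± 0.30 SE). The catalytic beta subunit Atp5b (1.97) and the alpha subunit Atp5a1 (2.42) were also higher in cells. The ring of subunit c is encoded by 3 genes that yield the same mature protein. Atp5g1 was at 82.2 CPM in cells and at 17.9 and 11 CPM in nuclei, and Atp5g3 at 128 CPM in cells and at 27.5 and 26.3 CPM in nuclei, and both rose in cells (2.51 and 2.25). Atp5g2 was at 16.1 CPM in cells and at 14.2 and 16.3 CPM in nuclei, so that its cell value lay between the nuclei (0.08, edgeR adjusted p = 0.89). Atp5g2 and Atp5h, like Cox7c, Ndufs5 and Atp5o, have near-identical gene copies or overlapping ends in the annotation, so their counts are uncertain. Atp5o was at or near 1 CPM in every library (0.993 in cells, 1.03 and 0.67 in nuclei).

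In complex I, 26 of 35 members were higher in cells, none was lower and 9 did not pass (median log2 fold 1.58). The accessory membrane-arm subunits Ndufb9 and Ndufb11 were at 110 and 130 CPM in cells, against 15.2 and 15.8 CPM for Ndufb9 and 22.5 and 15.6 CPM for Ndufb11 in nuclei (2.83 ± 0.29 and 2.77 ± 0.34 SE). Ndufa2, an accessory subunit of the peripheral arm, was at 220 CPM in cells and at 37.2 and 33.8 CPM in nuclei (2.63 ± 0.31 SE, edgeR adjusted p = 0.00512). The NADH-binding module was split. Ndufv1, which holds the flavin, was higher in cells (42.7 CPM, against 11.5 and 11.8 CPM in nuclei; 1.88), whereas its iron-sulphur neighbours Ndufs1 and Ndufv2 did not pass. Ndufs1 was at 45.7 CPM in cells and at 74.9 and 70.6 CPM in nuclei (-0.67, edgeR adjusted p = 0.163). Ndufv2 was at 49.7 CPM in cells and at 59.1 and 49.5 CPM in nuclei. Ndufs4, needed for a stable complex I in mice and humans, was at 82.4 CPM in cells, below 128 and 103 CPM in nuclei, and did not pass (-0.48, edgeR adjusted p = 0.327). The other members that did not pass were Ndufs3 (37.3 CPM in cells, against 36.4 and 42.2 CPM in nuclei), Ndufab1, Ndufa9, Ndufa12 and the low-level Ndufb6 and Ndufb8.

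The assembly factors of complex I did not share the pattern of the subunits. Of 8, 2 were higher in cells, where 16.3% of all genes tested were, and 6 did not pass. Their median log2 fold was -0.46. Ndufaf8 was at 37.3 CPM in cells and at 9.18 and 9.75 CPM in nuclei (1.98 ± 0.32 SE, edgeR adjusted p = 0.0104). Ndufaf3 was at 16.6 CPM in cells and at 5.62 and 4.26 CPM in nuclei (1.75 ± 0.41 SE, edgeR adjusted p = 0.03), a call that library totals ended (1.59). Ndufaf2, a chaperone of late assembly at chr13:108052589-108158652, was at 29.9 CPM in cells and at 59.4 and 67.6 CPM in nuclei, and missed the threshold (-1.09, edgeR adjusted p = 0.0559). Ndufaf6 was at 7.4 CPM in cells and at 14.8 and 17.4 CPM in nuclei (-1.12, edgeR adjusted p = 0.0827). In both genes the cell library lay below both nucleus libraries.

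Members with long genes, like all genes of that span, were mostly not higher in cells. The span of a gene on GRCm38.p6 runs from start to end with introns. Its median was 7131 bp in members and 22056 bp in the 19391 genes of both tables with a RefSeq span. Of 28 members under 5 kb, 25 were higher in cells, against 35.9% of all genes of that span (median log2 folds 2.17 and 1.30). Of 45 members from 5 to 20 kb, 35 were higher, against 24.1% of all genes (1.79 and 0.55). Of 12 members over 20 kb, 2 were higher, against 8.67% of all genes, and 1 was lower, against 12.2% (-0.31 and -0.38). Ndufaf2 has the longest span, 106064 bp, and Uqcrc2 spans 24335 bp. Over the 85 members span and fold had a Spearman rho of -0.43, and over 18158 genes -0.38, as a description across genes, which are not independent replicates and share the same 3 libraries. The treatment of intronic reads in the authors' counting is not given in the sources used here, and its part in these folds was not tested. The 33 member genes with any of the 4 motifs had a median log2 fold of 1.98 with 23 higher, and the 38 without had 1.71 with 29 higher. In the 7 genes with the palindrome, among them Cox6a1 and Uqcrc1 printed above, 3 were higher and the median was 1.07, against 49 of the 64 genes without it and a median of 1.96. These differences were not tested.

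**Figure D2:**
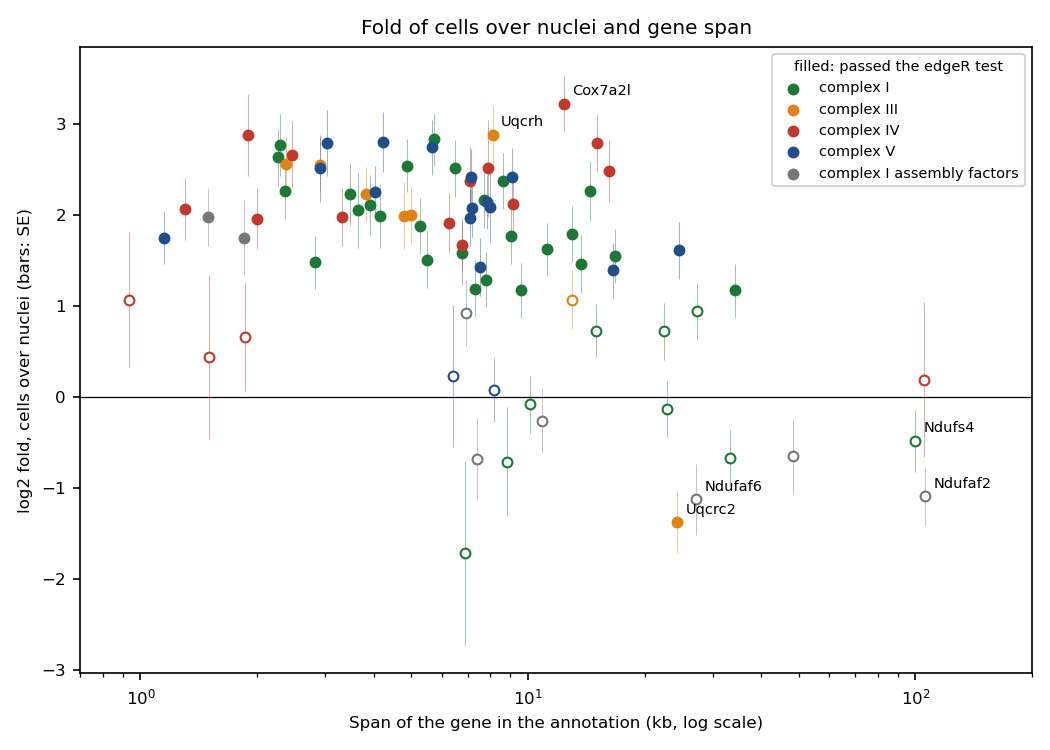
The log2 fold of cells over nuclei of each member (bars are SE) against its gene span in kb (log axis), coloured by complex and filled where it passed at an edgeR adjusted p under 0.05. Of the members under 5 kb 25 are filled, all above 0, and of the 12 over 20 kb 2 are filled above 0 and Uqcrc2 below it.

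Genes outside the member rule but in the same pathway were read from fixed lists. Both genes around cytochrome c were higher in cells: Cycs, cytochrome c itself, at 74.9 CPM in cells and at 10.4 and 9.28 CPM in nuclei (2.93), and Cyc1, the cytochrome of complex III, at 48.3 CPM in cells and at 10.5 and 13.8 CPM in nuclei (1.99). Complex II links the Krebs cycle to the chain and holds no subunit encoded in mitochondrial DNA. Of its 4 genes only Sdhd passed, at 19.3 CPM in cells, against 7.6 and 4.09 CPM in nuclei (1.72, edgeR adjusted p = 0.0464). The complex II list had a median log2 fold of 0.70. Of 29 tested assembly factors outside the member rule, which serve complexes I, III, IV and V, 8 were higher in cells (Cox14, Cox17, Cox18, Surf1, Coa3, Coa5, Uqcc2 and Uqcc3) and 3 lower (Cox11, Uqcc1 and Atpaf1, at -1.49, -1.54 and -1.43), with a median of 0.38. Among 9 regulators of mitochondrial genes the coactivator Ppargc1a was lower in cells, at 7.1 CPM, against 20.2 and 35.6 CPM in nuclei (-1.97), its relative Pprc1 was higher (1.34), and the median was -0.04. Of 14 tested glycolytic genes 10 were higher and Ldhb was lower (median 1.75), and of 12 Krebs cycle genes 2 were higher, Mdh2 and Idh3g (median 0.03).

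Cells and nuclei were next compared within cell classes. Clusters were named from marker genes after leaving out all members, Cox4i2 and mitochondrial transcripts, so that the classes did not rest on the genes described. In all, 16 classes had at least 50 barcodes in each library. Alveolar macrophage-like (AM-like), type I and type II pneumocyte-like (AT1-like, AT2-like), general capillary-like and aerocyte-like (the capillary cells of gas exchange) were among them. The AT2-like, general capillary-like and alveolar fibroblast-like nuclei of the 2 libraries fell in separate clusters, and the T cell-like nuclei may hold NK cells. With finer clusters (Leiden resolution 2), adventitial fibroblast-like nuclei went from 55 and 52 to 90 and 297. Alveolar fibroblast-like nuclei went from 746 and 1109 to 675 and 681, so they may hold adventitial ones. The interstitial macrophage-like nuclei were led by F13a1, a marker used here for classical monocytes, which formed no class of nuclei. Their own markers summed to 779 and 660 CPM, against 4437 CPM in the cells of that name. Cells and nuclei of this class may therefore differ in type.

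Within classes the subunits were again mostly higher in cells. Of 1192 pairs of member and class tested, 679 were higher in cells, 6 were lower and 507 did not pass, where 14.1% and 7.34% of all 171825 gene and class pairs were higher and lower. In AM-like cells 64 of 78 tested members were higher (23.9% of all genes there), with the highest member median of the 16 classes, 2.51. In AT2-like cells 61 of 80 were higher (21.0% of all genes) and 3 lower (16.2%). In aerocyte-like cells the count was 55 of 78 (17.4%) with 1 lower (9.94%), in general capillary-like cells 50 of 81 (13.7%) with 1 lower (6.67%), and in ciliated-like cells 46 of 68 (16%) with 1 lower (12.5%). These were all the classes with a member lower in cells.

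The other epithelial, stromal and vessel classes lay between. In AT1-like cells 50 of 78 members were higher (14.4% of all genes), in alveolar fibroblast-like cells 49 of 82 (13.2%), in mesothelial-like cells 44 of 71 (11.2%), in venous-like cells 43 of 76 (14.7%) and in adventitial fibroblast-like cells 36 of 61 (14.5%). Among leukocytes, 50 of 73 members were higher in dendritic-like cells (14.8%), 45 of 75 in T cell-like cells (14.2%), 42 of 71 in interstitial macrophage-like cells (11.9%) and 23 of 71 in B cell-like cells (11.3%), which had the lowest median, 1.08. Smooth muscle or myofibroblast-like cells had 21 of 72 (10.7%). In pericyte-like cells no member of 77 and no gene passed by edgeR (0.00%), although the member median was 1.38, 49 members had an unadjusted p under 0.05. There edgeR called 26 members with RLE scaling, 38 with library totals and 45 with no filter on low counts, and DESeq2 called 5. DESeq2 called fewer members within most classes, 289 pairs in all, with 1 member in smooth muscle or myofibroblast-like, 2 in adventitial fibroblast-like, 3 in B cell-like and 6 in venous-like cells. All-gene medians lay between -0.08 and 0.02 in every class.

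**Figure D3:**
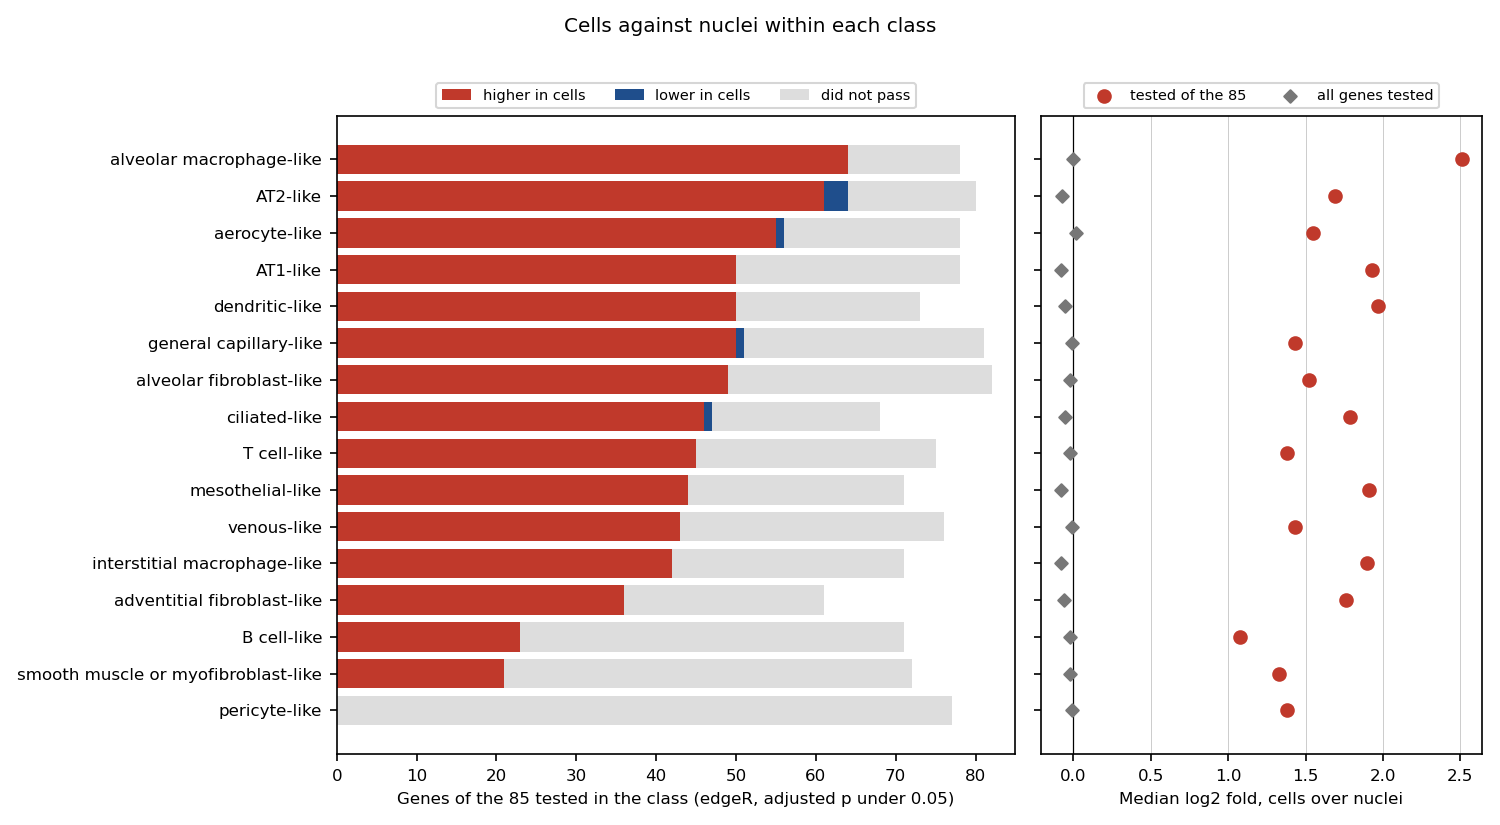
Left, the number of members tested in each of the 16 classes, as bars split into those higher in cells, lower in cells and not passed at an edgeR adjusted p under 0.05. Right, the median log2 fold of cells over nuclei of the tested members (circles) and of all genes tested (diamonds): the members lie between 1.08 and 2.51 in every class and all genes near 0.

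Complex I and its assembly factors had lower medians than the other complexes within classes as well. The median log2 fold ran from 0.88 in B cell-like to 2.39 in AM-like cells for complex I, from 1.04 to 2.94 in the same classes for complex III, and from 1.36 to 3.20 for complex IV. Complexes III, IV and V each had a higher median than complex I in 16 of 16 classes. The assembly factors were below complex I in 16 of 16, from -0.89 in ciliated-like to 0.53 in interstitial macrophage-like cells, and below 0 in 13. Of the 8 factors, only 4 were tested in ciliated-like and 3 in interstitial macrophage-like cells. Which factors were tested differed between classes, so the range of their medians may reflect this. These medians share the same 3 libraries and are a description.

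By edgeR with TMM scaling, a group of 13 members was higher in 15 of the 16 classes, all but the pericyte-like: Atp5a1, Atp5e, Atp5h, Atp5j2, Cox5a, Cox5b, Cox7a2l, Cox7c, Cox8a, Ndufa2, Ndufb10, Ndufb11 and Uqcrh. DESeq2 called 1 member in smooth muscle or myofibroblast-like and 2 in adventitial fibroblast-like cells, so most of the 13 fell short of 15 classes there. Of all gene and class pairs, 14.1% were higher and 7.34% lower by edgeR. These are shares of pairs. The share of all genes called in 15 classes, or in at least 1, is not given here, so the counts of members have no like share beside them. Over all classes, 67 members were higher in at least 1 class, 4 were lower in at least 1, none was called both ways and 14 were never called. Cox7a2l stood at 369 CPM in AM-like cells and at 21.9 and 30.4 CPM in AM-like nuclei (3.77 ± 0.32 SE, edgeR adjusted p = 1.09e-05). In ciliated-like cells it was at 86.1 CPM, against 22.7 and 28.1 CPM in nuclei (1.68 ± 0.47 SE, edgeR adjusted p = 0.0044), the smallest of its 16 folds. Cox5a was at 663 CPM in AM-like cells and at 42.3 and 53.1 CPM in their nuclei (3.77 ± 0.30 SE), but at 115 CPM in alveolar fibroblast-like cells, against 44.1 and 42 CPM in nuclei (1.42 ± 0.35 SE). The nuclear values of these classes overlapped, whereas the AM-like cells lay above the alveolar fibroblast-like cells. Uqcrh had its largest fold in interstitial macrophage-like cells, at 468 CPM, against 49.2 and 34 CPM in nuclei (3.46 ± 0.41 SE). The nuclei of that class may differ in type from its cells, as said above.

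The 4 members that were lower in cells within classes were long genes, each over 20 kb. Ndufaf2 was at 63.8 CPM in ciliated-like cells and at 216 and 224 CPM in ciliated-like nuclei (-1.79 ± 0.40 SE, edgeR adjusted p = 0.000315). It also passed in aerocyte-like cells, at 29.5 CPM, against 59.2 and 73.5 CPM in nuclei (-1.16), and its fold was below 0 in all 16 classes, from -0.27 to -1.79. Uqcrc2 passed in AT2-like cells, at 8.82 CPM, against 33.2 and 29.5 CPM in nuclei (-1.83 ± 0.49 SE, edgeR adjusted p = 0.002), and in general capillary-like cells, at 6.64 CPM, against 33.2 and 25.8 CPM in nuclei (-2.16 ± 0.48 SE, edgeR adjusted p = 0.00562). It lay below 0 in all 15 classes where it was tested. The remaining lower calls were in AT2-like cells, named because they are so few: Ndufs1 at 36.9 CPM, against 81.7 and 82.9 CPM in nuclei (-1.16, edgeR adjusted p = 0.0194), and Ndufaf6 at 2.4 CPM, against 18.5 and 16.5 CPM in nuclei (-2.85, edgeR adjusted p = 0.000743). Of the 6 lower calls, DESeq2 made 1, Uqcrc2 in general capillary-like cells, and library totals ended that of Ndufaf2 in aerocyte-like cells.

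The summed level of the 85 members ranked the classes differently in cells and in nuclei. AM-like cells had 11222 CPM of members (exact Poisson 95% interval 11144 to 11300, which covers counting error only), against 2690 and 2494 CPM in AM-like nuclei, a ratio of 4.33. Proliferating-like cells, with no nuclei to set beside them, had 11147 CPM, and mesothelial-like cells 8870 CPM, against 2596 and 2608 CPM in nuclei. AT1-like cells had 7688 CPM, against 2008 and 1809 CPM in nuclei, the lowest nuclei of the 16 classes. B cell-like cells had 6545 CPM, against 3549 and 3877 CPM in nuclei (a ratio of 1.76), and T cell-like cells 7127 CPM, against 3445 and 3543 CPM in nuclei. B cell-like barcodes thus lay near the bottom of the 16 classes in cells and at the top in nuclei. Member by member, 74 members had a median of at least 10 CPM over the 16 classes of cells. Of these, 41 were highest in AM-like cells and 21 were lowest in B cell-like cells. The 122 ciliated-like cells were highest for 11 members and lowest for 10, with a sum of 7549 CPM. In nuclei, 36 of 72 were highest in B cell-like and 17 in T cell-like nuclei, and 26 were lowest in AT1-like nuclei.

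**Figure D4:**
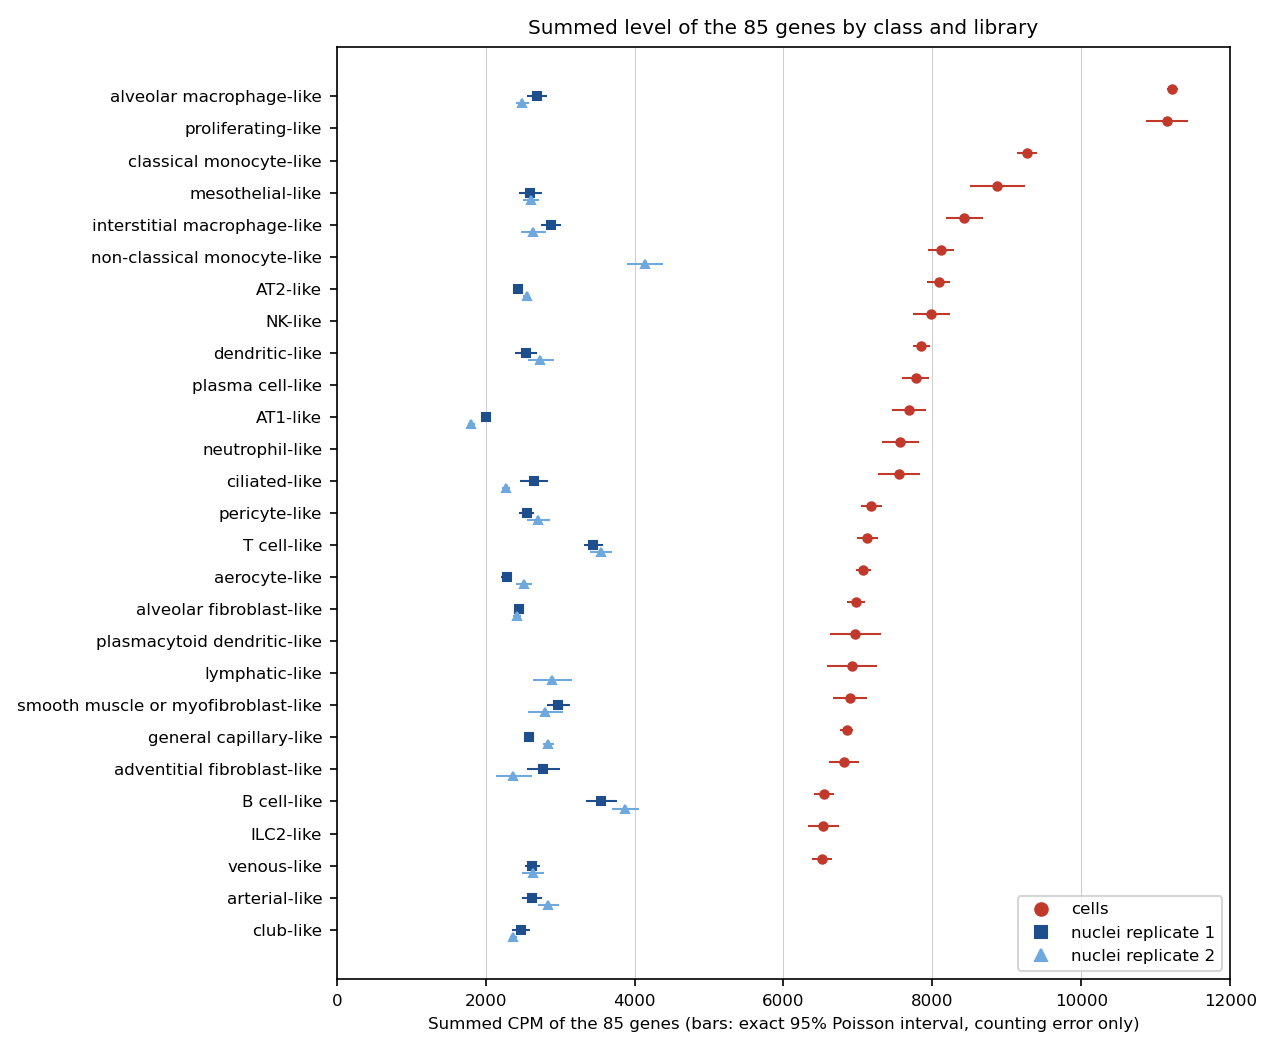
Summed CPM of the 85 members per class in cells and in both nucleus libraries, with exact Poisson 95% intervals that cover counting error only. AM-like cells stand at 11222 CPM, and B cell-like and T cell-like nuclei lie above the nuclei of the other compared classes; non-classical monocyte-like nuclei, from replicate 2 alone, lie at 4134 CPM.

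Depth and free RNA moved with the nuclear order. Across classes, the Spearman correlation of the class's median UMIs per barcode with its summed member level was 0.42 in cells (25 classes), but -0.80 (18 classes) and -0.95 (20 classes) in nuclei, where the classes share a library and its free RNA. With the percent of mitochondrial counts it was -0.01 in cells and 0.83 and 0.87 in nuclei. With the summed level of AT2 markers in classes other than AT2-like it was 0.00 in cells and 0.66 and 0.83 in nuclei, where those markers ran from 2629 to 5940 and from 2901 to 9778 CPM (782 to 1605 CPM in cells). B cell-like nuclei had medians of 2417 and 1215.5 UMIs with 5940 and 9205 CPM of AT2 markers, whereas AT1-like nuclei had 5531 and 4261 UMIs with 2629 and 2901 CPM. The part of depth and free RNA in the nuclear order was not tested.

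A direct test compared each of 18 classes with all other named nuclei, over the 2 nucleus libraries with library as a block. Few members passed: of 1500 pairs, 23 were higher in the class, where 7.43% of all 305914 gene and class pairs were, and 3 were lower, where 11.3% were. In 7 classes no member passed. By DESeq2, and in edgeR without the block, 6 of these calls passed: Ndufa4l2 in pericyte-like, Cox6b2 in alveolar fibroblast-like, Ndufaf7 in club-like, and Ndufaf2, Ndufaf6 and Ndufab1 in ciliated-like nuclei.

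Assembly factors gave the largest of these differences at 50 CPM or more, in airway epithelium. In ciliated-like nuclei (15.6% of all genes higher) Ndufaf2 was at 201 and 235 CPM, against 56.4 and 53 CPM in the other nuclei (2.01, edgeR adjusted p = 1.62e-11). Ndufab1, the mitochondrial acyl carrier protein, was at 84.6 and 80.3 CPM, against 38.8 and 35.5 CPM (1.16, edgeR adjusted p = 0.000525), and Ndufaf6 was also higher (1.28). In club-like nuclei, the secretory cells of the airway (10.8% of genes higher, 16.6% lower), Ndufaf7, a methyltransferase of complex I, was at 68 and 88.8 CPM, against 23.9 and 26.5 CPM in the other nuclei (1.65, edgeR adjusted p = 2.91e-11). There Ndufaf2 was also higher (0.61) and Cox6b2 lower (-1.55). The 2 nucleus libraries lay on the same side of the other nuclei in each of these.

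In B cell-like nuclei (5.49% of genes higher, 10.8% lower) 8 members were higher: Ndufaf8, Ndufs6, Ndufa5, Uqcr11, Ndufb7, Atp5e, Uqcr10 and Atp5h, by log2 folds of 0.90 to 1.59. Uqcr11, a small subunit of complex III, was at 78.8 and 92.1 CPM, against 41.6 and 45.6 CPM in the other nuclei (0.97, edgeR adjusted p = 0.012). Ndufaf7 was lower, at 3.03 and 20 CPM, against 27.4 and 36.6 CPM (-1.38, edgeR adjusted p = 0.0322). The low depth and high AT2 marker level of these nuclei, given above, stand beside this result. In general capillary-like nuclei (9.95% higher) Ndufa4, Atp5e and Ndufb7 were higher by 0.56 to 0.65, with Atp5e at 68.5 and 55.2 CPM, against 47 and 33.2 CPM in the other nuclei (edgeR adjusted p = 0.0286). Single members passed below 50 CPM in further classes, named because each is the only call there: Uqcrq in aerocyte-like nuclei (0.70; 7.77% of genes higher), Ndufa8 in arterial-like nuclei (1.13; 4.81%) and Ndufs5, lower in dendritic-like nuclei (-1.39; 11.7% lower).

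Isoforms known from particular tissues, apart from Cox4i2, were at low levels over whole libraries. Of these isoforms, 4 (Ndufa4l2, Cox4i2, Cox6b2 and Cox6a2) were well above their library level in 1 or more classes. Cox7a1 was above its own in AM-like cells, though at a low level. Ndufa4l2, a hypoxia-induced paralogue of Ndufa4 at chr10:127509274-127517154, was highest in pericyte-like barcodes, at 148 CPM in cells (exact Poisson 95% interval 128 to 170, 199 counts), against 26.6 and 24 CPM in nuclei. In pericyte-like nuclei (4.97% of all genes higher) it was at 31.4 and 23.4 TMM-scaled CPM, against 2.19 and 1.32 CPM in the other nuclei (3.96 ± 0.50 SE, edgeR adjusted p = 1.67e-05). Between pericyte-like cells and nuclei the difference did not pass (2.41, edgeR adjusted p = 0.0914), in a fit where no gene passed. In general capillary-like cells Ndufa4l2 was at 14.1 CPM, against 2.24 and 1.33 CPM in nuclei, and was higher (2.87, edgeR adjusted p = 0.0071). Its paralogue Ndufa4 showed no such peak, with 154 plain CPM in pericyte-like cells and 45.7 and 37.1 plain CPM in pericyte-like nuclei. Its medians over the compared classes were 186 plain CPM in cells and 46.9 plain CPM in nuclei (mean of both libraries). In whole libraries Ndufa4 was at 221 TMM-scaled CPM in cells and 52.5 and 33.3 TMM-scaled CPM in nuclei.

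Cox4i2, the lung isoform of subunit 4, matches no member symbol but belongs beside them, and it too was highest in pericytes. It stood at 409 CPM in pericyte-like cells (376 to 445), against 317 and 251 CPM in pericyte-like nuclei. The nuclei differed from all other nuclei, at 373 and 245 TMM-scaled CPM, against 11.8 and 19.3 CPM (4.34, edgeR adjusted p = 2.92e-08). Between whole libraries it was at 51.6 CPM in cells and 23.9 and 23.3 CPM in nuclei (1.13, edgeR adjusted p = 0.0397). General capillary-like cells had 67.9 CPM, against 9.71 and 8.11 CPM in nuclei, and venous-like cells 57 CPM, against 2.18 and 2.05 CPM in nuclei. AT2-like cells had 52.1 CPM, and AT2-like nuclei 22.3 and 97.7 CPM, so that the nucleus libraries lay on both sides of the cells.

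Cox6b2, a testis isoform of subunit 6b at chr7:4751792-4753094, was seen mainly in fibroblast-like, AM-like, mesothelial-like and proliferating-like cells. In interstitial macrophage-like cells it was at 14.4 CPM, from 8 counts. It stood at 82.4 CPM in alveolar fibroblast-like cells (69.9 to 96.6), against 24.2 and 20.9 CPM in nuclei, and at 59.2 CPM in AM-like cells (53.7 to 65.1), where it was higher than in AM-like nuclei (2.49). Mesothelial-like cells had 60.4 CPM and proliferating-like cells 58.7 CPM. Among nuclei it was higher than in the other nuclei in alveolar fibroblast-like (26.5 and 21.2 CPM, against 4.56 and 4.73 CPM; 2.35, edgeR adjusted p = 0.0127; 6.86% of genes higher), AM-like (1.09, edgeR adjusted p = 0.0354; 12.3%) and mesothelial-like nuclei (1.47, edgeR adjusted p = 0.0184; 6.90%). The calls in AM-like and mesothelial-like nuclei were lost by DESeq2 and without the block. Adventitial fibroblast-like cells had 45.7 CPM, and their nuclei did not pass against the other nuclei. Its paralogue Cox6b1, whose promoter is printed above, had 134 CPM in alveolar fibroblast-like cells and 42.7 and 44.3 CPM in their nuclei, and 306 CPM in AM-like cells.

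Cox6a2, the heart and skeletal muscle isoform of subunit 6a at chr7:128205435-128206366, was at 282 CPM in plasmacytoid dendritic-like cells (218 to 360, from 65 counts in 75 cells), a class with no nuclei to compare. In AT2-like cells it was at 37.9 CPM (27.9 to 50.2), against 4.26 and 2.26 CPM in AT2-like nuclei, and was higher in cells (3.49, edgeR adjusted p = 7.69e-09). Over whole libraries it was at 5.23 CPM in cells and 3.78 and 1.21 CPM in nuclei and did not pass (1.07, edgeR adjusted p = 0.321). Cox6a1, its widely expressed paralogue, was at 95.6 CPM in plasmacytoid dendritic-like cells and 114 CPM in AT2-like cells, against 34.4 and 40.5 CPM in AT2-like nuclei. The muscle isoforms Cox7a1 and Cox8b and the testis isoform Cox7b2 stayed at or below 2.47 CPM in whole libraries and did not pass. In AM-like cells Cox7a1 was at 6.27 CPM (4.57 to 8.39, from 45 counts), against 0 and 1.57 CPM in AM-like nuclei. Cox7b2 was higher in alveolar fibroblast-like nuclei than in the other nuclei, at 1.6 and 3.39 CPM, against 0.377 and 0.499 CPM (2.47, edgeR adjusted p = 0.0495). This call rested on 5 and 11 counts in the class and was lost by DESeq2 and without the block. The paralogues of these isoforms, Cox7a2, Cox7b and Cox8a, were at 233, 124 and 322 CPM in cells, against 48.5 and 35.2, 42 and 36, and 61.6 and 40.7 CPM in nuclei. All 3 were higher in cells (2.48, 1.67 and 2.66).

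**Figure D5:**
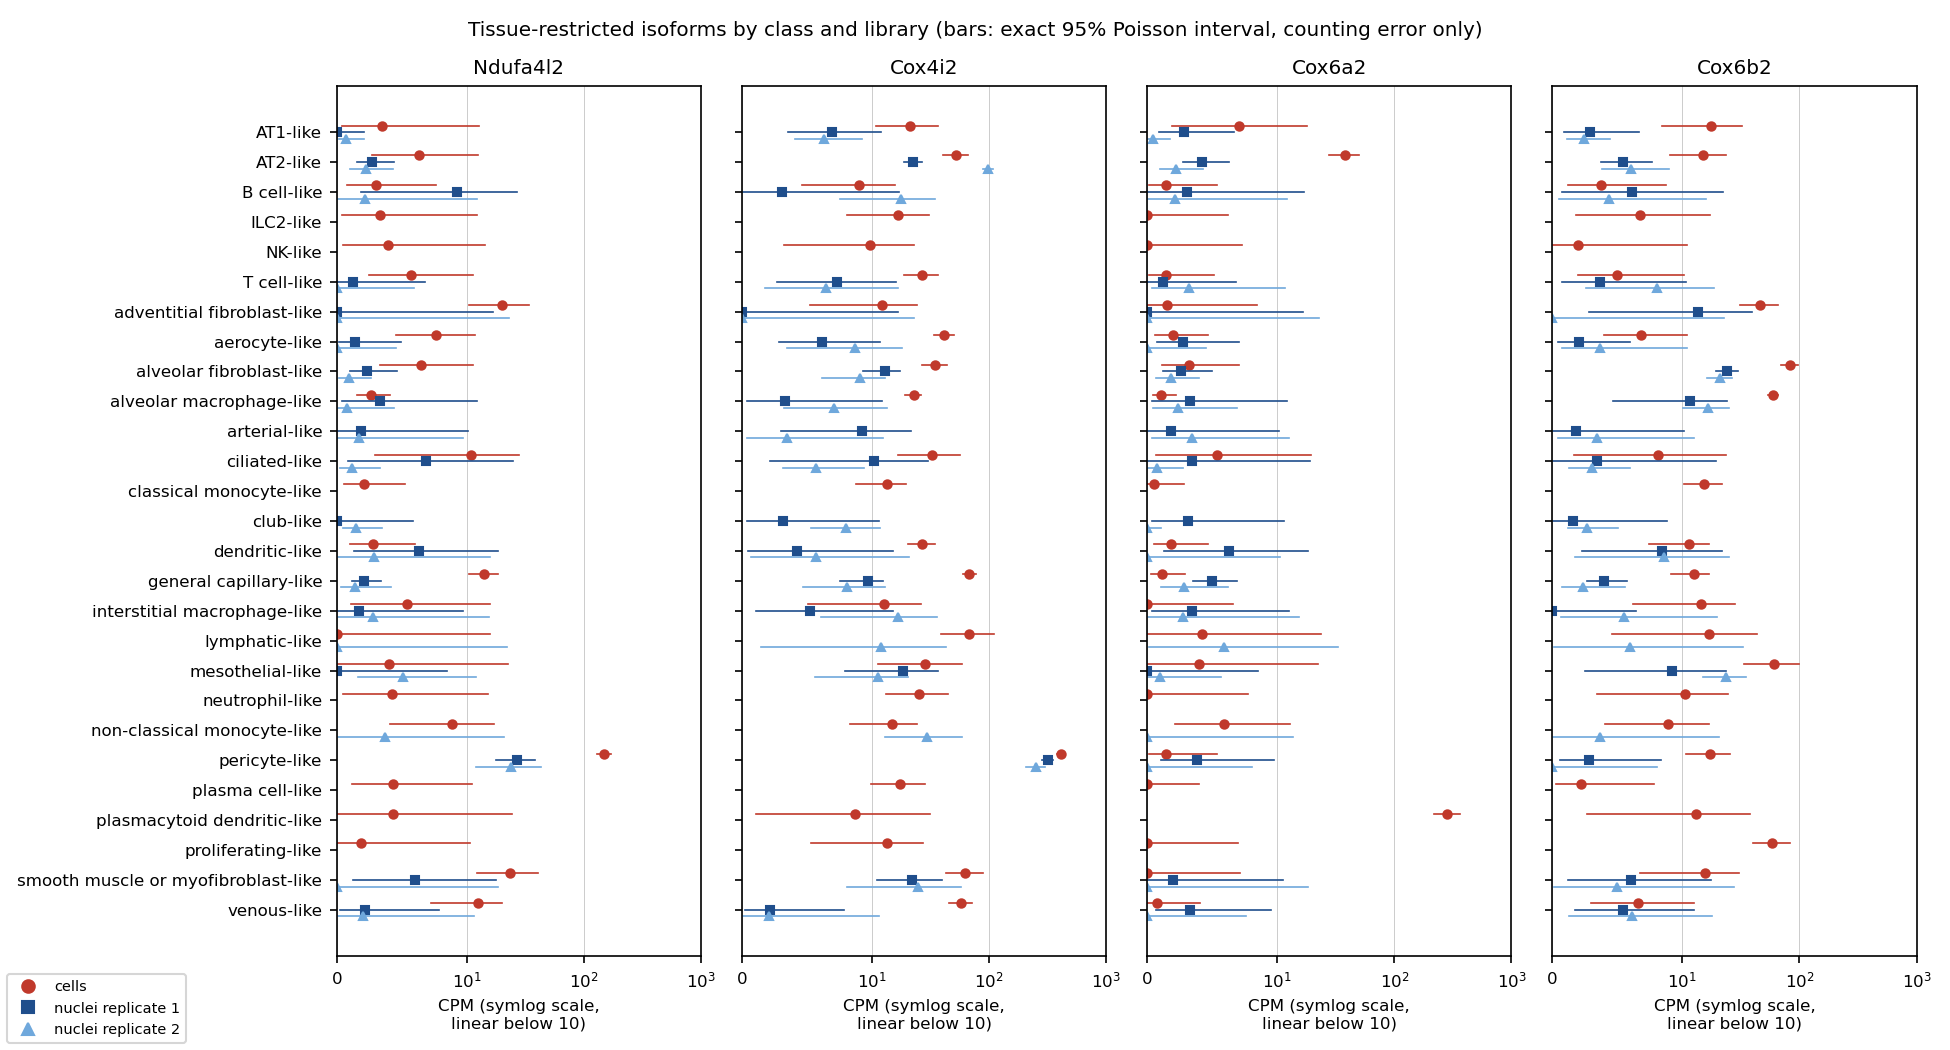
Plain CPM of Ndufa4l2, Cox4i2, Cox6a2 and Cox6b2 by class (axis linear below 10 and logarithmic above), in cells and in both nucleus libraries, with exact Poisson 95% intervals. Ndufa4l2 and Cox4i2 peak in pericyte-like barcodes, Cox6a2 in plasmacytoid dendritic-like cells and Cox6b2 in alveolar fibroblast-like cells.

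The fold of cells over nuclei differed between a class and the other classes for 26 member and class pairs in 4 of 16 classes, by the class and preparation term of edgeR. In AM-like barcodes the fold was larger for 16 members, where 3.03% of all genes had a larger fold. Cox5a was at 738 CPM in AM-like cells and 41.9 and 52.8 CPM in AM-like nuclei, against 164 CPM in other cells and 38.5 and 31.7 CPM in other nuclei, a difference of 1.71 on the log2 scale (edgeR adjusted p = 0.00138). In B cell-like barcodes the fold was smaller for 6 members (2.95% of all genes). Uqcr11 was at 101 CPM in B cell-like cells and 75.5 and 86.9 CPM in their nuclei, against 206 CPM in other cells and 40.3 and 43.5 CPM in other nuclei (-1.98, edgeR adjusted p = 0.00282). The fold was smaller for 3 members in general capillary-like (3.0% of genes) and for 1 in venous-like barcodes (1.44%). In the remaining 12 classes no member passed, which does not show that their folds were alike. These counts depend on the tool and the scaling. DESeq2 called 0 in each of the 4 classes, library totals 1 in AM-like, and none of the 3 calls in general capillary-like barcodes was made under any of the 4 alternatives. The call in venous-like barcodes was made with RLE scaling and lost under the other 3.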

How the data were processed

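The deposited values are whole-number counts, with a row for each gene and a column for each barcode, and were read as UMI counts (the assay is 10x 3' v3, per the labels). Alignment was to mm10 by STAR 2.5.3a, per the submitters' processing notes. How reads were counted, on which strand and with or without introns is not given in the sources used here. No barcode of the deposited tables has more than 2499 genes in cells, 2499 in nucleus replicate 1 or 2999 in nucleus replicate 2. The members and lists were chosen with earlier results of these data known.

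Computed here were counts summed per library, and per library and class, over the 21507 genes shared by both tables. The 1081 genes of the cell table and 1133 of the nucleus table that the other lacks were left out. The sums were tested with edgeR 4.0.16 (quasi-likelihood, TMM scaling, filterByExpr, Benjamini-Hochberg over all genes tested), and DESeq2 1.42.0 was an alternative. All p-values are two-sided. Whole-library and test CPM are TMM-scaled, and class levels with Poisson intervals are plain CPM. Barcodes with at least 400 genes and at most 20% mitochondrial UMIs were clustered per table with scanpy 1.11.5 and leidenalg 0.10.2 (2000 variable genes, 30 components, 20 neighbours, resolution 1), without members, Cox4i2 and mitochondrial transcripts. A class needed at least 3 fixed markers and 50 barcodes in each library compared. Scrublet marked 11, 85 and 8 barcodes, and only the 85 of nucleus replicate 1 were removed, because a marked share below 0.5% was not acted on. Clusters of 808 cells with markers of 2 lineages were left out. Named genes were the 3 members per complex and direction with the largest called fold and at least 10 CPM, all tissue-restricted isoforms with their paralogues, members called in most classes or lower in at least 2, and in each class of nuclei the called member with the largest fold and at least 50 CPM. The few members named outside this rule were chosen after their values were seen, as was the test of folds between classes. Of the 85 members 29 overlap an antisense gene, so their reads and those of that gene may not be told apart. Intervals cover counting error only. Alternatives were RLE scaling, library totals, no filter on low counts, Leiden resolution 2, every deposited barcode, DESeq2, no replicate block and leaving out each nucleus library.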

Additional observations from a re-analysis of the deposited data

Results flagged for a closer look

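The fold of cells over nuclei differed between a class and the other classes, by edgeR's term for class and preparation, for 26 pairs of member and class and for Cox4i2 in 2 classes. The test was chosen after seeing the data. On the log2 scale, the fold in AM-like barcodes was larger than in the rest by 1.27 for Cox7b, 1.29 for Cox7a2, 1.31 for Ndufa2, 1.33 for Ndufa4, 1.34 for Ndufs6, 1.37 for Uqcr11, 1.39 for Atp5e, 1.39 for Uqcr10, 1.41 for Cox6b1, 1.44 for Atp5g1, 1.45 for Uqcrq, 1.45 for Atp5g3, 1.52 for Atp5k, 1.67 for Ndufb2, 1.71 for Cox5a and 1.77 for Ndufb4. In B cell-like barcodes the difference was -2.06 for Ndufaf8, -1.98 for Uqcr11, -1.97 for Uqcrb, -1.81 for Atp5k, -1.75 for Uqcrq and -1.57 for Uqcr10. In general capillary-like barcodes it was -3.17 for Cox6a2, -1.24 for Atp5e and -1.22 for Cox5a, and 2.12 for Cox4i2. In venous-like barcodes it was -1.42 for Cox7b and 3.58 for Cox4i2. The calls in general capillary-like barcodes other than Cox4i2 were lost under all 4 alternatives, and Cox7b in venous-like barcodes under 3 of them. That of Cox4i2 was lost at equal totals in general capillary-like and by DESeq2 in venous-like barcodes. AM-like barcodes are 18.3% of cells and 2.26% and 4.45% of nuclei, and the part of this makeup was not tested beyond the equal totals setting given with the processing.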

How the results depend on the processing

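Over whole libraries, every alternative with a test gave 58 to 62 members higher in cells and 1 lower, and library totals, which moved the median of all genes to -0.20 (against -0.03 with TMM scaling, and to between -0.47 and 0.17 within classes), gave the lowest count. No paired analysis was possible because cells and nuclei share fewer than 2 replicate numbers. Leaving out nucleus replicate 1 or 2 gave member medians between 1.70 and 2.02, and medians over classes of 1.64 without replicate 1 and 1.44 without replicate 2, against 1.62.

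DESeq2 called fewer members within classes: 289 pairs higher and 1 lower. It called 33 members higher in AT1-like, 3 in B cell-like, 15 in T cell-like, 2 in adventitial fibroblast-like, 18 in aerocyte-like, 23 in alveolar fibroblast-like, 11 in ciliated-like, 22 in dendritic-like, 29 in general capillary-like, 8 in interstitial macrophage-like, 11 in mesothelial-like, 5 in pericyte-like, 1 in smooth muscle or myofibroblast-like and 6 in venous-like cells. Library totals gave 12 pairs lower, and 15 members higher in B cell-like, 29 in T cell-like, 38 in pericyte-like and 2 in smooth muscle or myofibroblast-like cells. Pericyte-like cells had 26 with RLE scaling and 45 with no filter.

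Between classes of nuclei, DESeq2 called 6 pairs higher and 0 lower, and the fit with no replicate block also called 6 higher and 0 lower. Library totals gave 13 lower and no filter 5 lower. Of the 26 calls, 23 remained at resolution 2, 22 with RLE scaling, 21 with no filter, 18 with library totals, and 6 with DESeq2 and 6 with no block.

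The difference of folds was called for 16 members in AM-like barcodes with RLE scaling, 1 with library totals, 0 with DESeq2 and 43 with the other classes at equal totals. In B cell-like barcodes the counts were 2, 7, 0 and 4 in that order of settings, in general capillary-like 0 under all 4, and in venous-like 1, 0, 0 and 0. Among the results recomputed, no call turned its direction. Members that did not pass could do so: the cell value of Atp5g2 lay between those of the nucleus libraries. The cause of these changes was not tested. Depth limits the low isoforms: Cox7b2 and Cox8b rest on few counts per class.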

Other observations

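A few members stood apart in classes of cells, by at least 2.5 times above or below their median over 25 cell classes. These were picked after their values were seen, are given with exact Poisson 95% intervals and carry no test. Cox5a was at 528 CPM in AM-like (512 to 546) and 449 CPM in proliferating-like cells (394 to 510), against a median of 172 CPM. Cox5b was at 195 CPM in proliferating-like cells (159 to 237), against 70.6 CPM. Ciliated-like cells were high in Ndufab1, at 146 CPM (110 to 190), against 53.5 CPM, and low in Cox7a2l, at 83.7 CPM (56.9 to 119), against 230 CPM, and in Ndufa5, at 24.3 CPM (11.1 to 46.1), against 66.5 CPM. Plasma cell-like cells, which secrete antibody, had 129 CPM of Ndufa1 (107 to 155), against 42.7 CPM.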
